A study of Mus musculus with 6 samples.

Results

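Integrins are receptors made of an α and a β subunit that bind the extracellular matrix, and the adaptor proteins of focal adhesions join their short tails to the actin cytoskeleton. A total of 44 genes for integrin subunits and focal adhesion adaptors was followed, listed by name. Of these, 39 had a probe set annotated to that gene alone and were measured, among 22180 genes in all. The other 5 (Ilk, Itga10, Lims2, Nedd9 and Ptk2) were not analysed here. Each gene was read from 1 probe set, and only Itgav had a second.

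Talins and kindlins bind β tails and switch integrins to their active state. Vinculin, α-actinins, tensins and the complex of integrin-linked kinase, PINCH and parvin then carry force to actin, while Src and scaffolds such as p130Cas turn adhesion into signalling. SLK, a Ste20-like kinase, takes part in the disassembly of these adhesions in moving cells, and the comparison asks which of their genes differ when it is lost.

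RNA was measured on 3 arrays of SLK wild-type and 3 arrays of SLK knockout cells, both untreated cultures of NeuNDL-derived mouse cells. NeuNDL is an activated form of the receptor tyrosine kinase Neu (ErbB2), and both groups carry it. The series describes cell lines at passages 9, 19 and 29, but its labels tie no passage, line or clone to an array and do not say which part of Slk was removed. Whether the 3 samples of a group are separate lines or cultures is not stated, so the p-values cover only the spread among them, which may be technical. Values are on the deposited log2 scale, a log2 fold change is knockout minus wild-type, and the threshold is an adjusted p of 0.05 over all 22180 genes (limma).

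Slk itself, the targeted gene, was lower in knockout cells, with a log2 fold change of -1.10 (SE 0.06, limma adjusted p = 0.0021). As for the labelled cell type, 9 of 14 mammary epithelial markers were brighter than the median gene, led by the keratins Krt18 (10.5 in wild-type cells) and Krt8 (10.3). Cdh1 fell in knockout cells (log2 fold change -0.43, limma adjusted p = 0.022), and Epcam and Cldn7 had -0.35 and -0.48 without passing. Of these 14 markers, 9 had a higher mean in knockout cells and 5 a lower one. Krt8 and Krt18 had 0.15 and 0.14 without passing. Of the markers of other cells, 8 of 9 for leukocytes and 7 of 8 for endothelium were dimmer than the median gene, but only 3 of 10 for fibroblasts were. Per array, the mean log2 value of those 10 fibroblast markers was 5.48 to 5.53 in wild-type and 5.43 to 5.48 in knockout cells. These markers went both ways: Pdgfrb fell (log2 fold change -0.67, limma adjusted p = 0.0066), while Dcn and Postn had 0.43 and 0.37 without passing. The mean of 9 basal markers was 4.89 to 4.98 against 4.66 to 4.86. Among them, Krt14 fell (log2 fold change -0.66, limma adjusted p = 0.0096) and Acta2 had -0.47 without passing. Krt14 was called in 9 of 16 alternative settings, with a limma adjusted p of up to 0.11. Of the 9 basal markers, 6 were dimmer than the median gene, and 2 (Oxtr and Myh11) had a higher mean in knockout cells. The groups overlapped for 7 of the 9, where 16.9% of all genes had groups without overlap. The part of these markers in the results below was not tested.

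One of the 39 genes passed the threshold: Parvb, which encodes β-parvin, rose 2.07-fold in knockout cells. None fell. Over all genes tested 0.437% were called, 0.325% as higher and 0.113% as lower, and 1 of 39 is 2.56%. Several abundant genes, among them Itgb1, Itga2, Itga3, Itga6, Itgav, Tln1, Vcl and Actn1, had log2 fold changes between -0.03 and 0.04. Other abundant genes had larger ones: 0.25 for Itga5, 0.07 for each of Actn4, Itgb5 and Bcar1, and -0.06 for Git2. Besides Parvb, the arrays of both groups were separated, with no overlap, for 9 genes with higher means in knockout cells (Tns1, Itga8, Src, Itga5, Itga9, Itgb3, Tns2, Actn4 and Itgb5) and 3 with lower means (Itgb6, Itga7 and Itgb8). None of these 12 passed the threshold, and 16.9% of all genes were separated in this way.

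**Figure D1:**
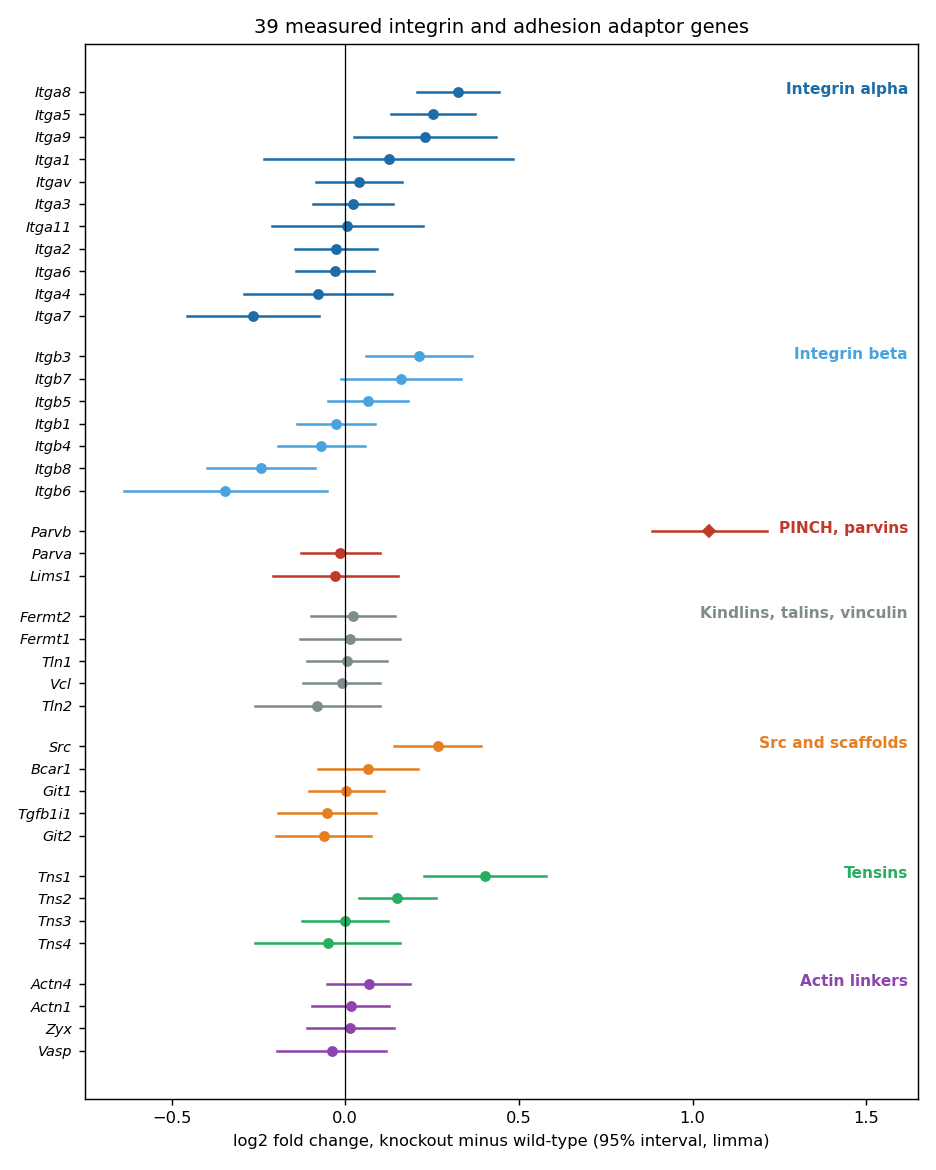
Log2 fold change (horizontal axis, knockout minus wild-type) of the 39 measured integrin and adaptor genes, grouped by role, with 95% intervals from limma; the diamond marks the gene past the adjusted threshold. Parvb stands at 1.05, and the next is Tns1 at 0.40.

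The parvins are adaptors that bind integrin-linked kinase and filamentous actin, and the kinase holds either α-parvin or β-parvin in a complex with PINCH. On wild-type arrays 1 to 3, Parvb had log2 values of 6.29, 6.39 and 6.21, and on knockout arrays 1 to 3 it had 7.26, 7.40 and 7.37. The lowest knockout array thus lay 0.87 log2 units above the highest wild-type array. The means were 6.30 ± 0.09 and 7.34 ± 0.08 (SD, n = 3 each), a log2 fold change of 1.05 (SE 0.07, 95% interval 0.88 to 1.21, limma adjusted p = 0.0042). With any single array left out, the log2 fold change was 1.01 to 1.09 and the adjusted p at most 0.035, and 15 of all 16 alternative settings called the gene.

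The stretch before the Parvb start is shown because it is the control region next to the only gene here that passed the threshold. It spans the 250 bases upstream of the annotated start on the plus strand, chr15:84231793-84232042 of GRCm38.p6, from RefSeq. Capitals mark the GC boxes (GGGCGG), and the arrays do not show which start site these cells used.
Parvb: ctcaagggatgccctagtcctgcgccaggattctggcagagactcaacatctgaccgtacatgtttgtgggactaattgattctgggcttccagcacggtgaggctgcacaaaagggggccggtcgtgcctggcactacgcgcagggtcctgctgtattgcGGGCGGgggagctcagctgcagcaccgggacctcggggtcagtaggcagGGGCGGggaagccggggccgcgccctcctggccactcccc
There are 2 GC boxes, starting 89 and 40 bases before the start, and 65.2% of the bases are G or C. A GC box on either strand is held by 32.7% of the 32851 upstream windows of this length in the RefSeq table. The other motifs searched on both strands, none overlapping another here, were CCAAT (33.8% of windows), TATAAA (12.4%), TGANTCA of AP-1 (6.75%), CATTCC of TEAD factors (12.6%), CAGGTG of Snail and Zeb factors (17.2%) and ACAANG of Sox factors (36.3%); none of them has a match in this window. Among the next genes by p, Tns1 has 3 GC boxes, Itga5 has 2 and Src has 1 in the same window. Itga8 has no GC box and 1 ACAANG match, and Itga5 also has 1 ACAANG match.

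Parva, which encodes α-parvin, did not pass the threshold. Its log2 values were 9.69, 9.75 and 9.74 on the wild-type arrays and 9.72, 9.73 and 9.69 on the knockout arrays, which overlap. The log2 fold change was -0.01 (SE 0.05), turning to 0.0016 with quantile normalization, and its 95% interval allows at most a 1.09-fold change. Within arrays, Parvb minus Parva went from -3.43 ± 0.09 to -2.37 ± 0.08 (SD, n = 3 each), a shift of 1.06 log2 units. The exact two-sided permutation test gave p = 0.10 for that shift, the smallest that 3 against 3 arrays allow, and 0.23 adjusted over the 7 gene pairs compared. Lims1, which encodes PINCH-1, the partner of integrin-linked kinase on its other side, had a log2 fold change of -0.03 (SE 0.07), and its sign changed when single arrays were left out.

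The genes beside Parvb on the chromosome were looked at after its value was seen. Samm50, the nearest measured gene upstream, had a log2 fold change of 0.09 (limma adjusted p = 0.63), and Parvg, the nearest downstream, which encodes the γ-parvin of blood cells, had one of 0.04 (adjusted p = 0.90). Shisal1, the next measured gene after Parvg, had one of 0.40 with separated groups and an adjusted p of 0.17.

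**Figure D2:**
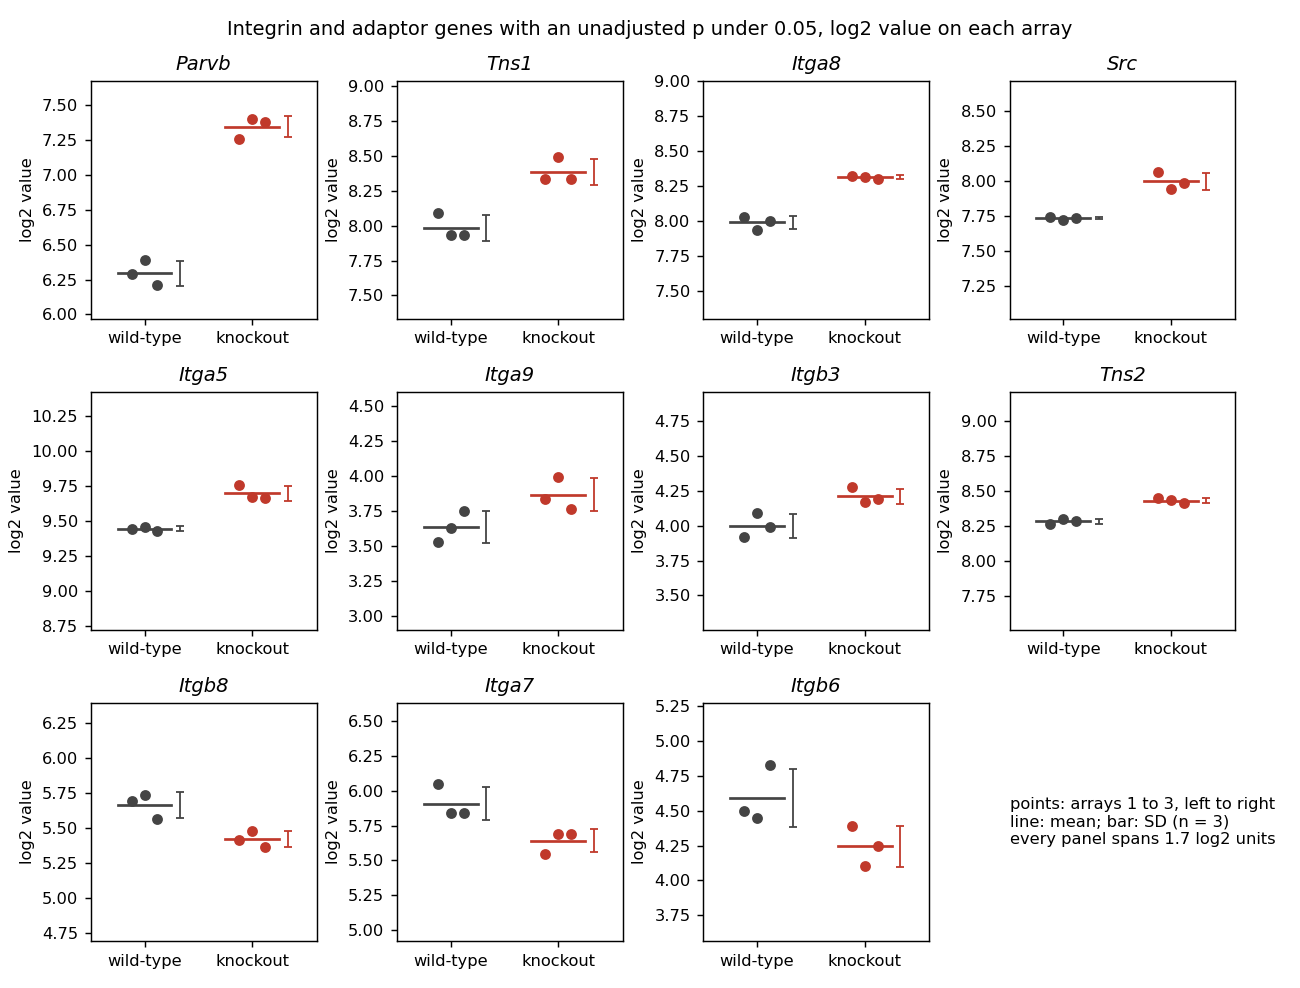
Log2 value (vertical axis) on each array for the 11 genes with an unadjusted limma p under 0.05, wild-type in grey and knockout in red, with the mean and SD (n = 3). Every panel spans the same height, so the gap of 1.05 for Parvb can be set against 0.15 for Tns2, and the groups are separated in all 11.

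Among the 11 α subunits measured, none passed the threshold, and the groups were separated for 4, where 16.9% of all genes were. Itga8 encodes α8, which pairs with β1 and binds nephronectin. Its log2 values were 8.03, 7.94 and 8.0 in wild-type and 8.32, 8.32 and 8.30 in knockout cells. The knockout arrays were closely spaced and all above the wild-type ones, with a log2 fold change of 0.32 (SE 0.05), or 1.25-fold, and a limma adjusted p of 0.066. The gene passed in 4 of 16 alternative settings, among them the fit with an intensity trend (adjusted p = 0.00098), and its adjusted p ranged from 0.00092 to 0.26 over all 16.

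Itga5 encodes α5, the partner of β1 in the main fibronectin receptor. Wild-type arrays read 9.45, 9.46 and 9.43, and knockout arrays 9.76, 9.68 and 9.66, again without overlap. The log2 fold change was 0.25 (SE 0.05), or 1.19-fold, with a limma adjusted p of 0.13, and 3 of 16 alternatives called it (adjusted p 0.0020 to 0.37 over all of them). Of the ligands, looked at after their values were seen, Fn1 (fibronectin) had a log2 fold change of 0.08 (limma adjusted p = 0.65) and Npnt (nephronectin) one of -0.05 (0.80).

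Itga9, a receptor subunit for tenascin-C and osteopontin, was dim. It read 3.53, 3.63 and 3.75 in wild-type and 3.84, 4.0 and 3.76 in knockout cells, with a log2 fold change of 0.23 (SE 0.09, limma adjusted p = 0.43). Its lowest knockout array lay 0.02 above its highest wild-type array, so the separation was narrow. Itga7, a laminin receptor subunit best known from muscle, went the other way. It had 6.04, 5.84 and 5.84 in wild-type against 5.54, 5.69 and 5.69 in knockout cells, a log2 fold change of -0.27 (SE 0.08, limma adjusted p = 0.32).

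The α subunits of the common epithelial receptors differed little. Itga6 (α6, of the laminin receptors α6β1 and α6β4) had a log2 fold change of -0.03, Itga3 (α3, a receptor for laminin-332) 0.02, Itga2 (α2, a collagen receptor) -0.03 and Itgav (αv) 0.04. Their SEs were 0.05, and all 4 lay above 98.7% of genes by mean value. The 95% intervals allow changes of at most 1.10-fold for Itga3 and Itga6, 1.11-fold for Itga2 and 1.12-fold for Itgav. A second, dim Itgav probe set gave -0.05, and the mean of both turned the sign of the Itgav change (-0.0038).

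Itga1 (α1, a receptor for collagen IV), Itga4 (α4, which binds VCAM-1) and Itga11 (α11, a collagen receptor of fibroblasts) were all dimmer than the median gene. Their log2 fold changes were 0.12, -0.08 and 0.0061. Wild-type array 1 read 2.62 for Itga1 against 2.95 to 3.24 on the other wild-type arrays, and without it the sign of the Itga1 change turned (-0.03). The interval for Itga1 still reaches 0.48 log2 units, the farthest from 0 among the genes with an unadjusted p of 0.05 or more.

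Of the 7 β subunits none passed the threshold. Itgb6 and Itgb8 encode β6 and β8, which pair only with αv and can activate latent TGF-β. Itgb6 was only just brighter than the median gene, with a mean of 4.42 against 4.394. It read 4.50, 4.45 and 4.83 in wild-type and 4.39, 4.10 and 4.24 in knockout cells. Wild-type array 3 stood highest, and the log2 fold change of -0.35 (SE 0.12, limma adjusted p = 0.40) was -0.42 to -0.23 when single arrays were left out. Itgb8 had 5.69, 5.74 and 5.56 against 5.41, 5.48 and 5.37, all knockout arrays being lower, with a log2 fold change of -0.24 (SE 0.07, limma adjusted p = 0.26).

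Itgb3 encodes β3, the partner of αv in the classical vitronectin receptor. It was dim, at 3.92, 4.09 and 3.99 in wild-type and 4.27, 4.17 and 4.19 in knockout cells, with a log2 fold change of 0.21 (SE 0.06, limma adjusted p = 0.32). Itgb5, whose product also binds vitronectin with αv, read 8.91, 8.87 and 8.90 against 8.94, 9.00 and 8.93. Its groups did not overlap either, but the log2 fold change was 0.07 (SE 0.05, limma adjusted p = 0.71). Itgb3 minus Itgb5 within arrays changed by 0.15 log2 units, with overlapping groups (exact permutation p = 0.20, adjusted over 7 pairs 0.35).

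Itgb7, a β subunit of leukocytes, had 4.34, 4.47 and 4.34 in wild-type and 4.46, 4.66 and 4.51 in knockout cells, which overlap (log2 fold change 0.16, SE 0.07, limma adjusted p = 0.52). Itgb4, the β subunit of hemidesmosomes, had 8.22, 8.15 and 8.24 against 8.09, 8.16 and 8.14. Its log2 fold change of -0.07 (SE 0.05, limma adjusted p = 0.72) came with overlapping groups. Itgb1, the partner of most α subunits here, had 10.90 ± 0.03 and 10.88 ± 0.02 (SD, n = 3 each), and its interval allows at most a 1.10-fold change. The pair Itgb4 minus Itgb1 moved by -0.04 (exact permutation p = 0.40), and Itga6 minus Itga3 by -0.05 (exact permutation p = 0.10). Adjusted over the 7 pairs these were 0.47 and 0.23. For Itga6 minus Itga3 the groups were separated, so even this small shift had the smallest p that 3 against 3 arrays allow.

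**Figure D3:**
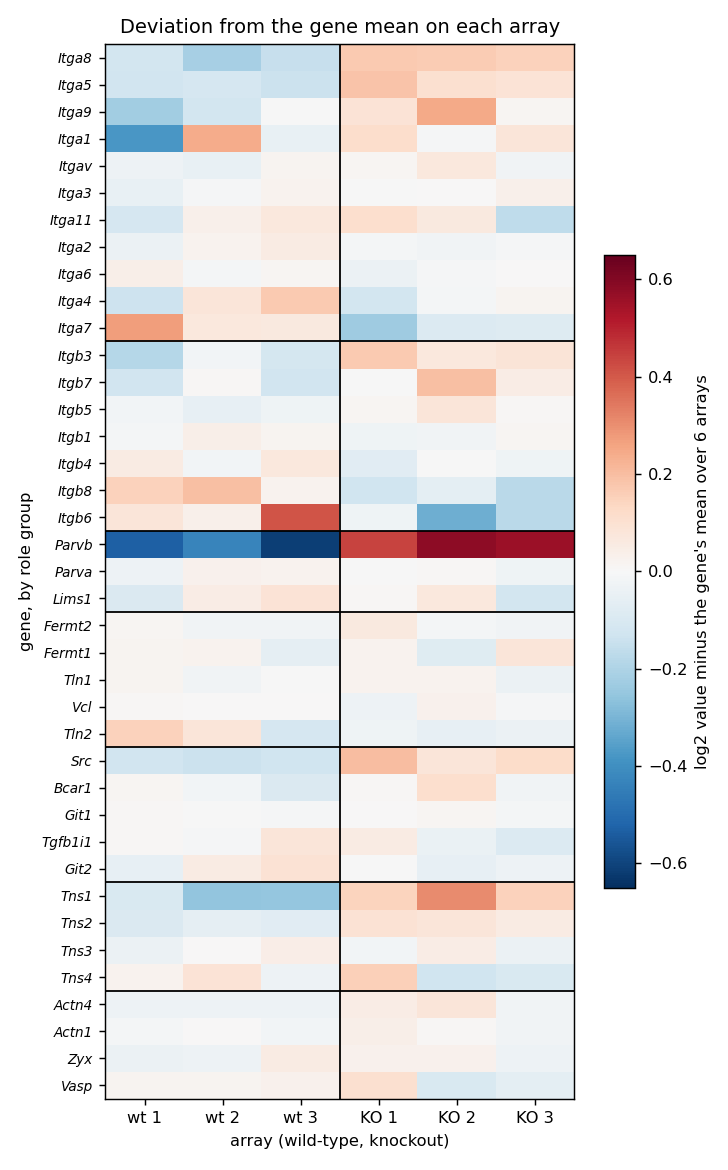
Log2 value on each array minus the gene's own mean over the 6 arrays (colour scale), with genes in rows by role group and wild-type and knockout arrays in columns. Parvb shows the strongest contrast between the groups. Itga8, Itga5, Src, Tns1, Tns2, Itga9 and Itgb3 show a paler one in the same direction, and Itgb6, Itga7 and Itgb8 one in the opposite direction. The talin, kindlin and actin linker rows show almost none.

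The proteins that bind and activate β tails showed no change past the threshold. Tln1 and Tln2, the talins, had log2 fold changes of 0.0054 and -0.08. Fermt1 (kindlin-1, the epithelial form) and Fermt2 (kindlin-2) had 0.01 and 0.02, and Vcl (vinculin, which joins talin to actin) had -0.0096. All 5 genes had overlapping groups, and limma adjusted p was 0.78 or more. The intervals of Tln1 and Vcl allow at most a 1.09-fold change, and that of Tln2, the dimmest of the 5, allows 1.20-fold. Within arrays, Tln2 minus Tln1 moved by -0.09 and Fermt1 minus Fermt2 by -0.0084 (exact permutation p = 0.40 and 0.90, and 0.47 and 0.90 adjusted over 7 pairs).

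Src, the tyrosine kinase that phosphorylates focal adhesion kinase and p130Cas, was the only one of 5 measured genes of its group with separated arrays. It read 7.74, 7.72 and 7.73 in wild-type and 8.06, 7.94 and 7.98 in knockout cells. The wild-type arrays spanned 0.015 log2 units, and every knockout array was higher. The log2 fold change was 0.27 (SE 0.05), or 1.20-fold, with a limma adjusted p of 0.13. Of 16 alternatives 3 called it, and its adjusted p ranged from 0.0069 to 0.36.

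Bcar1 (p130Cas, a docking protein for Crk) had a log2 fold change of 0.07, and Git1 and Git2, scaffolds that bind paxillin and Rac exchange factors, had 0.0026 and -0.06. Tgfb1i1, which encodes the paxillin relative Hic-5, had -0.05. Their groups all overlapped, limma adjusted p lay between 0.77 and 0.99, and the interval of Git1 was the narrowest of all 39 genes, allowing at most a 1.08-fold change.

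Tensins bind β tails and actin filaments and mark elongated, mature adhesions. Tns1 had log2 values of 8.09, 7.93 and 7.93 in wild-type and 8.33, 8.49 and 8.33 in knockout cells. The groups were separated by 0.24, and the means, 7.98 ± 0.09 and 8.39 ± 0.09 (SD, n = 3 each), differed by 0.40 (SE 0.07), or 1.32-fold, with a limma adjusted p of 0.11. It passed in 3 of 16 alternatives (adjusted p 0.0029 to 0.32 over all of them). Tns2 read 8.26, 8.30 and 8.29 against 8.45, 8.43 and 8.41, a log2 fold change of 0.15 (SE 0.05, limma adjusted p = 0.33) with tightly spaced arrays and no overlap.

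The 2 remaining tensins had overlapping groups. Tns3 had a log2 fold change of -0.0021 (SE 0.05), and Tns4, a short tensin without the actin-binding part, was dim and had -0.05 (SE 0.09). Tns1 minus Tns3 within arrays went from -1.20 ± 0.13 to -0.80 ± 0.05 (SD, n = 3 each), a shift of 0.41 with separated groups (exact permutation p = 0.10, adjusted over 7 pairs 0.23).

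No actin linker passed the threshold. Actn4 (α-actinin-4, which cross-links filaments) read 11.21 on each wild-type array and 11.29, 11.32 and 11.22 in knockout cells. The groups did not overlap, yet the log2 fold change was 0.07 (SE 0.05, limma adjusted p = 0.71). Actn1 (α-actinin-1) had 0.02, Zyx (zyxin, recruited to adhesions under tension) 0.01 and Vasp (which speeds filament growth) -0.04, all with overlapping groups. The signs for Zyx and Vasp changed when particular single arrays were left out.

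As a group, the 39 genes had a median log2 fold change of 0.0061, against 0.0038 over all genes, and 22 had a higher mean in knockout cells (56.4%, against 51.5% of all genes). Their median absolute change was 0.06, against 0.07 over all genes. The groups were separated for 13 of 39 (33.3%), 10 higher and 3 lower, where 16.9% of all genes were separated (8.79% higher and 8.1% lower). An unadjusted limma p under 0.05 was found for 11 of 39 (28.2%), 8 with a higher and 3 with a lower mean, against 10.2% of all genes (5.75% higher and 4.47% lower).

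Most of these genes were bright: 32 of 39 lay above the median gene. The median SE was 0.05 for those 32, 0.09 for the 7 dim ones and 0.08 over all genes. The ranges overlapped, at 0.04 to 0.12 for the bright and 0.06 to 0.15 for the dim genes. Among genes brighter than the median gene, 23.4% were separated and 11.9% had an unadjusted limma p under 0.05. Among the 32 it was 11 (34.4%) and 9 (28.1%). These sets were not matched for brightness, as 17 of the 39 lay above the 90th percentile of gene means. Of the 28 genes with an unadjusted p of 0.05 or more, 20 had a 95% interval wholly within 0.2 log2 units of 0, or 1.15-fold.

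**Figure D4:**
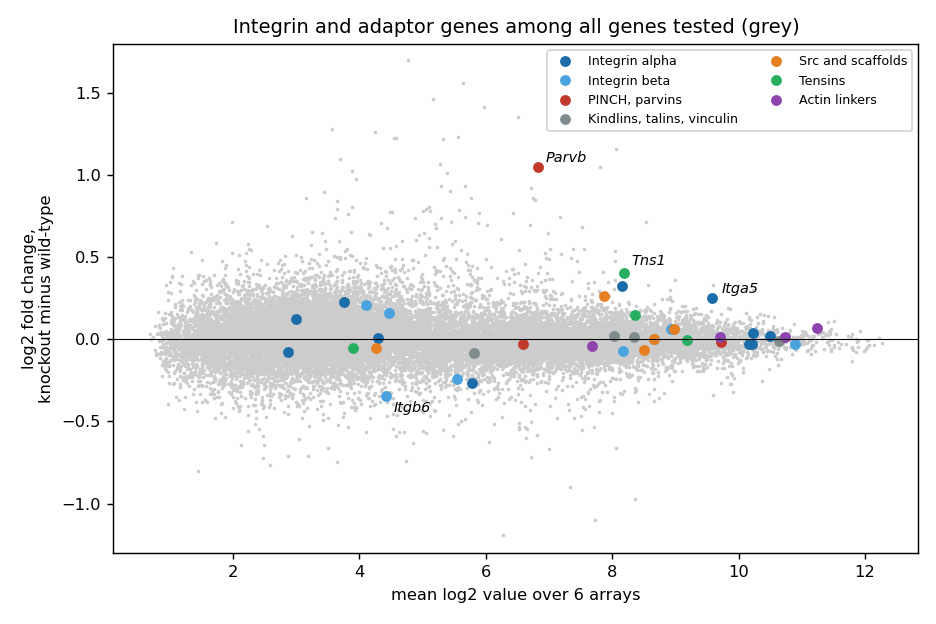
Log2 fold change (vertical axis, knockout minus wild-type) against the mean log2 value over 6 arrays (horizontal axis) for all 22180 genes in grey and the 39 integrin and adaptor genes in colour by role. The spread of the grey points narrows to the right, where most of the coloured genes lie, and Parvb stands at 1.05.

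Among genes for ligands that integrins bind, mostly matrix proteins, 36 were measured. Of these, 3 rose and 1 fell, which is to be read against the 0.437% called over all genes. Lama4, the laminin α4 chain, rose by 1.23 log2 units (SE 0.05, limma adjusted p = 0.00082). Col4a1, a chain of the basement membrane collagen, rose by 0.41 (SE 0.05, adjusted p = 0.029), and Tgfbi, a secreted protein that binds integrins, rose by 0.55 (SE 0.07, adjusted p = 0.038). Cdh1, E-cadherin and the ligand of the leukocyte integrin αEβ7, fell by 0.43 (SE 0.05, adjusted p = 0.022). The list's median log2 fold change was 0.05, with 22 of 36 means higher. When single arrays were left out, Lama4 kept its call each time and the other 3 lost theirs each time, with adjusted p of 0.098 to 0.16. With the mean of its probe sets Cdh1 had a log2 fold change of -0.27 and no call (adjusted p = 0.45), and with median centring Tgfbi had no call (adjusted p = 0.056). With each probe set tested by itself, Cdh1, Col4a1 and Tgfbi had none.

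None of 65 other adhesion proteins passed the threshold. Apbb1ip (RIAM, which brings talin to integrins) had a log2 fold change of 0.30 (SE 0.05, limma adjusted p = 0.077). The actin regulator Enah (Mena), a relative of VASP, had 0.60 (SE 0.12, adjusted p = 0.15) but was dim, and the LIM protein gene Ajuba had -0.22 (SE 0.05, adjusted p = 0.19). With an unadjusted p under 0.05 there were 9 higher and 3 lower genes, against 5.75% and 4.47% of all genes, and the list's median was 9.3e-05.

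Of the 7 integrin genes of blood cells, 6 were dimmer than the median gene and none passed. Itgb2, the common β2 chain of leukocyte integrins, was the exception in brightness, at 6.09 in wild-type and 6.45 in knockout cells (log2 fold change 0.35, SE 0.06, limma adjusted p = 0.083). Itgal (αL) had -0.20 and Itgae (αE) 0.11. Of 9 leukocyte markers, 7 had a higher mean in knockout cells and none passed. Tyrobp, an adaptor of myeloid cells, went from 3.12 to 3.41 with separated groups (limma adjusted p = 0.36), Ptprc from 2.22 to 2.17, and Cd68, the only bright one, from 7.15 to 7.10.

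**Figure D5:**
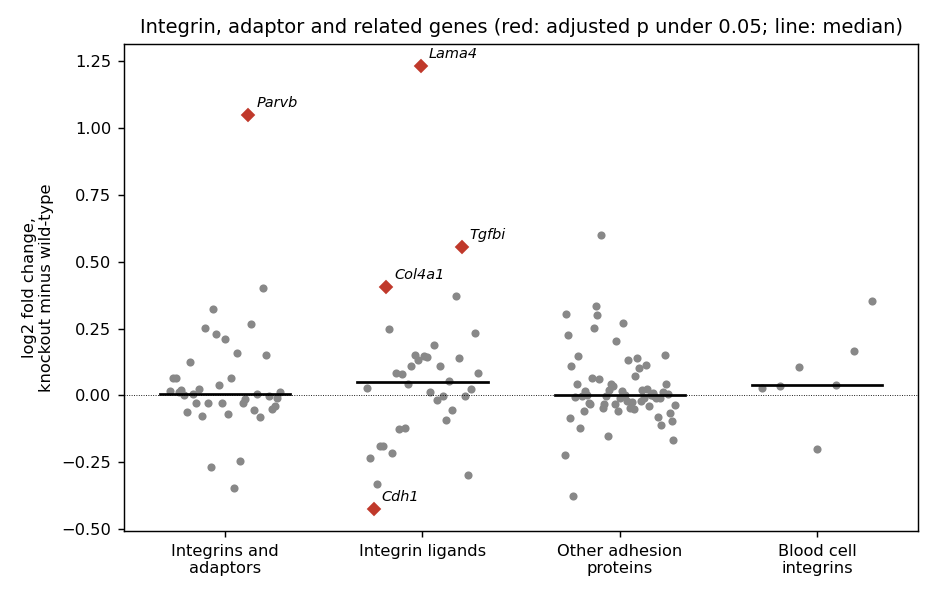
Log2 fold change (vertical axis, knockout minus wild-type) of each measured gene in the integrin and adaptor list and in 3 related lists; red diamonds passed the adjusted threshold and the black line is the list's median. Parvb, Lama4, Col4a1, Tgfbi and Cdh1 are the 5 genes past the threshold, and all medians lie between 0 and 0.05.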

How the data were processed

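The authors deposited 1 table of log2 values for 41345 probe sets on 6 arrays, made with Affymetrix Expression Console 1.4.1.46 per the submitters' processing notes. No source used here gives the normalization, the annotation or the logarithm's base; log2 was taken because the highest value, 12.4, is above what natural logarithms of 16-bit readings can reach (11.1). Array medians were 3.93 to 3.97, no detection calls were used, and such values compress the changes of dim genes. The 23521 probe sets with 1 symbol in the platform annotation were used, the brightest per gene. Groups came from the sample titles. limma 3.58.1 in R 4.3.3 (lmFit, eBayes without trend, two-sided, Benjamini-Hochberg over all genes, no filter, no covariate) gave SEs, intervals and p-values. Pairs of relatives were compared within arrays by exact permutation.

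The genes, lists and tests were chosen with earlier results of these data known. All integrin and adaptor genes are named, with values on every array for the 15 with the smallest p; of each related list, the genes past the threshold and the 3 with the smallest p are named. One related list is not reported here. Of the cell marker lists, only the counts and genes that bear on these results are given. Of 10 pairs planned, 3 held a gene without a probe set of its own. Tested on simulated arrays of all 22180 genes, the fit recovered 4% of changes of 0.25 log2 units, 48% of 0.5 and 86% of 1. The changed genes, 50 per size, were drawn at random from all genes in 1 run. These rates are thus not those of the integrin and adaptor genes, which are mostly brighter. Alternatives were other normalizations, filters on dim genes, probe set rules and variance models, array weights, a replicate block and leaving out each array.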

Additional observations from a re-analysis of the deposited data

How the results depend on the processing

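There were 3 arrays per group, and SEs tended to be larger for dim genes. Parvb was called in 15 of 16 alternatives, with log2 fold changes of 1.01 to 1.09. The 11 genes with an unadjusted p under 0.05 kept their direction in every alternative that tested them. Itga9 and Itgb3 were not tested without the dimmest 50% of genes. The groups of these 11 were separated and each had 1 probe set, so only the other normalizations could have turned their direction. Of the 39 genes, 5 were called in at least 1 alternative. From 1 higher and none lower, the calls among the 39 went to 2 without the dimmest 30% of genes (Itga8 added), and to 5 without the dimmest 50% and with an intensity trend, robust or not (Tns1, Src and Itga5 added too); 0 were lower in each. Over all genes, 72 higher and 25 lower became 143 and 63 without the dimmest 30%, 202 and 139 without the dimmest 50%, 265 and 176 with an intensity trend, 264 and 179 with a robust trend, and 25 and 4 with each probe set tested by itself. With 1 array left out they were 13 to 24 higher and 2 to 5 lower, with 1 of the 39 called each time. The filters test fewer genes and also refit the variance model on those kept. The cause of these differences in calls was not tested.

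Arrays with the same number did not deviate together (correlations of 0.04, 0.02 and -0.07 across genes for numbers 1 to 3). With the replicate block, which leaves fewer degrees of freedom, 5 genes were higher and 1 lower, with 0 of the 39 called and Parvb at adjusted p = 0.070.

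Changes near 0 turned sign in 14 of the 39 genes, the largest 0.12 in size. They did so for Parva (0.0016) and Vcl (0.014) with quantile normalization, Git1 (-0.000873) with median centring and Itgav (-0.0038) with the mean of its probe sets. With single arrays left out, the ranges across 0 were -0.034 to 0.28 for Itga1, -0.048 to 0.091 for Itga11, -0.0011 to 0.043 for Zyx, -0.0051 to 0.026 for Tln1, -0.082 to 0.023 for Lims1, -0.022 to 0.056 for Fermt1, -0.0036 to 0.0091 for Git1, -0.027 to 0.018 for Tns3, -0.0053 to 0.038 for Fermt2, -0.025 to 0.0044 for Vcl, -0.14 to 0.0013 for Tns4 and -0.10 to 0.00014 for Vasp. For each of the 7 gene pairs, other normalizations changed the shift by less than 1 SD of the pair among arrays of a group. The mean of probe sets could not change it, as each gene of these pairs had 1 probe set. Leaving out single arrays also changed it by less than 1 SD. With so few arrays per group it could not have changed it by more, so no stability is read from that.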
